A study of Mus musculus with 6 samples.

Results

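The genes of TGF-β and BMP signalling were followed in the abdominal aorta of mice with *Prdm16* deleted in vascular smooth muscle cells (VSMCs). They are 35 genes of the 55426 in the deposited table, each matched to 1 row by its symbol, and they cover ligands, latent binding proteins, secreted antagonists, receptors, SMAD proteins, the SKI repressors and direct targets. *Prdm16*SMKO mice carry floxed *Prdm16* alleles (*Prdm16* fl/fl) and *Myh11*-CreERT2, a Cre recombinase that is made in smooth muscle and activated by tamoxifen, and the wild-type control mice carry *Myh11*-CreERT2. The Cre cassette sits on the Y chromosome, so all mice were male. The series gives tamoxifen at 75 mg/kg/day in corn oil by gavage for 5 days to mice 8 to 10 weeks old on a C57BL/6J background, without naming the group, and RNA was taken 2 weeks later. Each group had 3 libraries of polyadenylated RNA from whole abdominal aorta. The Cre acts in smooth muscle of other organs too, and cells of the aorta other than smooth muscle keep their alleles. Values are TPM, shares of all transcripts that are corrected for transcript length and sum to the same total in each library, so levels can be compared between genes. In whole tissue, fewer cells of a type and less RNA per cell cannot be told apart.

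TGF-β and BMP ligands are secreted dimers that bring together type I and type II receptor kinases. The type I kinase then phosphorylates receptor-regulated SMADs, SMAD2 and SMAD3 mostly for TGF-β and activin and SMAD1, SMAD5 and SMAD9 mostly for BMPs, which enter the nucleus with SMAD4. TGF-β is stored in the matrix bound to latent TGF-β binding proteins, BMPs are held in check by secreted antagonists, and SMAD6, SMAD7, SKI and SKIL dampen the signal inside the cell. In the aorta the pathway is known for its part in matrix production and in the VSMC phenotype, and inherited defects in its receptors and SMADs cause aortic aneurysm.

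Values of single libraries are given in the order of replicates 1, 2 and 3. The targeted gene *Prdm16* had 33.4, 36.8 and 30.8 TPM in control aortas and 20.8, 27.7 and 14.8 TPM in *Prdm16*SMKO aortas. The groups did not overlap, and the fitted log2 difference was -0.70, standard error 0.23 (limma, adjusted p = 0.376, unadjusted p = 0.0126). Of 9 smooth muscle markers all were detected in every library, and their summed level was 15109 to 25593 TPM in control and 11705 to 17908 TPM in *Prdm16*SMKO aortas. All 8 fibroblast markers (752 to 963 against 778 to 1417 TPM) and all 8 endothelial markers (278 to 347 against 306 to 517 TPM) were also detected in every library, with the highest sums in *Prdm16*SMKO replicate 2. The 8 macrophage markers summed to 70.8 to 111 TPM in control and 112 to 205 TPM in *Prdm16*SMKO aortas, without overlap. Adipocyte markers were highest in *Prdm16*SMKO replicate 3 (2346 TPM, against 461 to 951 TPM elsewhere), and brown adipocyte markers too (657 TPM, against 11.2 to 246 TPM). Schwann cell and neuron markers were highest in *Prdm16*SMKO replicate 1 (380 TPM, against 12.0 to 109 TPM elsewhere), and so were those of cardiac and skeletal muscle (44.4 TPM, against 6.31 to 13.9 TPM), of which *Myl7* was at 0 throughout. Lymphocyte and mesothelial markers summed to at most 3.56 and 0.44 TPM. Over all 15775 genes tested, 56 were called at an adjusted p under 0.05, 29 higher and 27 lower in *Prdm16*SMKO mice. The share of higher calls was 51.8% with TPM as deposited, 39.9% with median-of-ratios size factors and 35.7% with quantile normalization.

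Among the 35 signalling genes, *Fst*, *Bmp4* and *Tgfb2* had the clearest higher values in *Prdm16*SMKO aortas, and *Id1* and *Id2* the clearest lower ones. *Bmp6* was also higher and *Inhba* lower, but they passed an unadjusted p of 0.05 (limma) in fewer of the fits with other settings. The high mean of *Bmp6* came mostly from *Prdm16*SMKO replicate 2. None of the 35 was called at an adjusted p under 0.05 (limma), where 0.355% of all genes tested were called. The paper's own analysis, whose model is not named, used the same adjusted threshold but called many more genes than the 56 called here. The 2 sets of calls are therefore not like for like. Among its called genes with apoptosis terms it lists *Tgfb2* as higher and *Id1*, *Smad3* and *Fstl1* as lower. In the limma fit used here, 7 had an unadjusted p under 0.05, which is 20% of the 35 beside 8.74% of all genes tested. Of the 7, 4 were higher and 3 lower, where 4.88% and 3.85% of all genes tested were. For 9 of the 35 (25.7%) no library of 1 group fell in the range of the other, against 12.8% of all genes tested. Of the 9, 4 were higher and 5 lower, and the shares over all genes tested were 7.02% and 5.76%. All 35 passed the minimum mean of 0.5 TPM. Their median log2 fold change was -0.13, with 20 lower and 15 higher, and the median over all genes tested was 0.02. The count of 7 depended on single libraries, with 12 when control replicate 3 was left out and 4 when *Prdm16*SMKO replicate 2 was. It was 11 with size factors or without mitochondrial and ribosomal RNA genes, and 12 with quantile normalization.

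**Figure D1:**
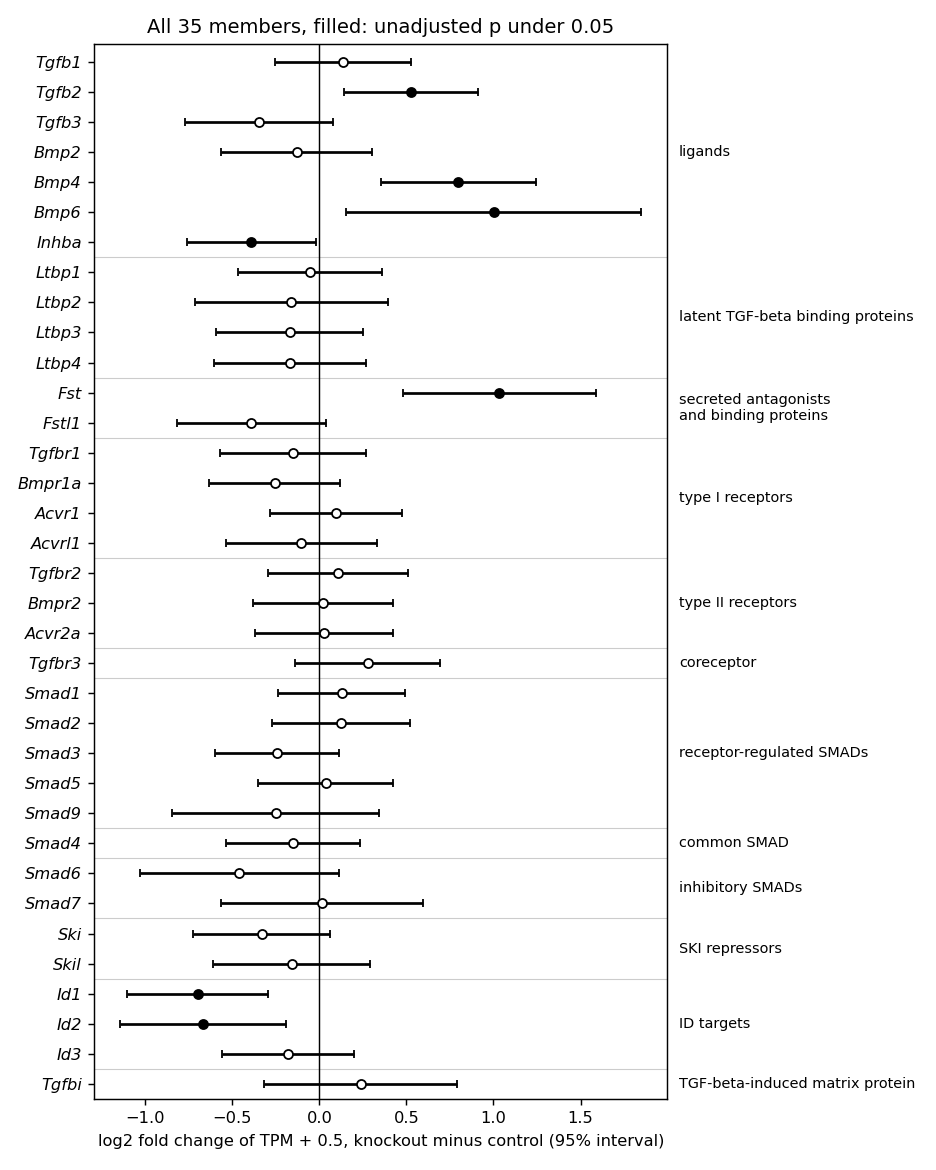
Log2 fold change of each of the 35 genes (x axis, log2 of TPM + 0.5, *Prdm16*SMKO minus control, with the 95% interval from limma), grouped by role on the y axis. Filled points are the 7 genes with an unadjusted p under 0.05, and the intervals of the other 28 cross 0.

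Promoter sequences are shown for *Id2*, *Bmp4* and *Tgfb2*, which are among the genes that lead the results, and for *Id3*, the paralog of *Id2* whose difference was small. They come from RefSeq on GRCm38.p6, which held a window for 25 of the 35 genes (*Fst* and *Id1* were not among them), in 31 windows of 300 bases that run from 250 bases before to 50 bases after a gene's start. The short words searched are known from SMAD binding and were looked for on both strands: GGCGCC, a GC-rich word linked with BMP SMADs, GTCTAGAC, a palindrome of the SMAD box, and CAGACA, a longer form of the SMAD box. None of these words contains another. The 250 bases before each RefSeq start are printed 5′ to 3′ on the gene's strand, and capitals mark the words found. For *Id2* and *Id3* the printed bases lie inside the gene positions given below, which begin farther upstream.
Id2, chr12:25096093-25096342, minus strand: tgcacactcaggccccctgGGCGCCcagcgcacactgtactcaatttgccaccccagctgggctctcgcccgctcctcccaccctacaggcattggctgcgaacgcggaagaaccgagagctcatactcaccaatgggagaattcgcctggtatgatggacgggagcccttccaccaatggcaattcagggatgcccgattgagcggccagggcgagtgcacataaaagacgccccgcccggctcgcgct
Id3, chr4:136143572-136143821, plus strand: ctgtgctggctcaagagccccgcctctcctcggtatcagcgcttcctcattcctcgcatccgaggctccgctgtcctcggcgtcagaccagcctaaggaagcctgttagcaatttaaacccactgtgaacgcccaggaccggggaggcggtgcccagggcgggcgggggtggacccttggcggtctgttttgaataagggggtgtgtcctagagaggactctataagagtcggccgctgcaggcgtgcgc
Bmp4, chr14:46390670-46390919, minus strand: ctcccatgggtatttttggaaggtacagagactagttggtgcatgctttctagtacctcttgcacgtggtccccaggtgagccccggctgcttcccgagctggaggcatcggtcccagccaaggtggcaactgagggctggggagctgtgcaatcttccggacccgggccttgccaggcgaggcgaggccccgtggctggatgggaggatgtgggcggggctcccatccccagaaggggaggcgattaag
Tgfb2, chr1:186705990-186706239, minus strand: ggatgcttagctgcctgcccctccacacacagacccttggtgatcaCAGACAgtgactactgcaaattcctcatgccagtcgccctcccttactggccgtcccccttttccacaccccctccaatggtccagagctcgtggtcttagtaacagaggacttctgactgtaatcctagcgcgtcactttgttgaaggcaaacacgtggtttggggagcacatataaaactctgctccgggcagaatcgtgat
The *Id2* window held GGCGCC 231 bases before its RefSeq start, and the *Tgfb2* window held CAGACA 204 bases before its RefSeq start. In *Id3* and *Bmp4* these letters were not in the window. GGCGCC was in 11 of the 31 windows, for 9 genes (*Bmpr1a*, *Bmpr2*, *Id2*, *Ltbp4*, *Ski*, *Smad5*, *Smad9*, *Tgfbi* and *Tgfbr1*), and in 11.9% of all 32851 promoter windows of the same length. CAGACA was in 4 of the 31 and in 21.04% of all windows. GTCTAGAC was in the window of *Smad6* alone, 4 bases before its start, and in 0.213% of all windows. A match is a description of letters and was not tied to the expression values.

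The ligands differed widely in level, and their differences between groups had both signs. In control aortas the order by TPM was *Tgfb3* (86.1 to 124), *Bmp4* (40.5 to 53.4), *Inhba* (33.4 to 38.2), *Tgfb1* (20.3 to 26.4), *Tgfb2* (19.7 to 25.1), *Bmp6* (10.9 to 19.9) and *Bmp2* (4.44 to 5.81). Neighbours in that order overlapped for *Tgfb1* and *Tgfb2* and for *Tgfb2* and *Bmp6*, and the others did not overlap. In *Prdm16*SMKO aortas *Bmp4* (61.2 to 89.7 TPM) reached the range of *Tgfb3* (72.9 to 93.4 TPM), and *Tgfb2* (27.2 to 34.9 TPM) that of *Inhba* (22.4 to 29.3 TPM).

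*Bmp4* (ENSMUSG00000021835; GRCm38 chromosome 14, 46383520 to 46390669) encodes a BMP ligand made by mesenchymal and endothelial cells. It was at 40.5, 40.9 and 53.4 TPM in control aortas and 85.8, 89.7 and 61.2 TPM in *Prdm16*SMKO aortas. All *Prdm16*SMKO libraries were above all controls, and replicate 3 was the closest in both groups. The mean was 44.9 ± 7.34 TPM (SD, n = 3) for control mice and 78.9 ± 15.5 TPM (SD, n = 3) for *Prdm16*SMKO mice, a fitted ratio of 1.74. On the log2 scale the difference was 0.80 with a standard error of 0.20 (limma, unadjusted p = 0.00296, Benjamini-Hochberg adjusted p = 0.199). It had an unadjusted p under 0.05 in each of the 17 alternative fits, with log2 fold changes from 0.70 to 0.97, and its adjusted p ran from 0.0123 with array weights to 0.567 without control replicate 1.

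*Bmp6* (ENSMUSG00000039004; chromosome 13, 38345107 to 38500302) encodes a BMP ligand that endothelial cells make and that is known for control of hepcidin. It was at 14.8, 10.9 and 19.9 TPM in control and 22.8, 56.3 and 21.04 TPM in *Prdm16*SMKO aortas. The groups did not overlap, but replicates 1 and 3 of *Prdm16*SMKO mice were close to the highest control, and replicate 2 stood apart. That library also had the highest endothelial marker sum, 517 TPM, and the highest fibroblast sum, 1417 TPM, and their part in the value was not tested. The log2 fold change was 1.001 (standard error 0.37; limma, unadjusted p = 0.0258, adjusted p = 0.469), and when *Prdm16*SMKO replicate 2 was left out it was 0.55 (unadjusted p = 0.0683). The unadjusted p was under 0.05 in 11 of the 17 alternative fits, and the exceptions besides that one were size factors (0.0539), quantile normalization (0.0595), robust moderation (0.0501), the replicate block (0.0775) and the fit that dropped control replicate 2 (0.102). *Bmp6* shares 224 exon bases, 5.74% of its own, with *Txndc5* on the other strand, and whether the counting used strand is not given in the sources used here. *Txndc5* was at 108 to 147 TPM in control and 106 to 144 TPM in *Prdm16*SMKO aortas.

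*Tgfb2* (ENSMUSG00000039239; chromosome 1, 186622792 to 186705989) encodes TGF-β2, and loss of 1 copy of the human gene causes a form of Loeys-Dietz aneurysm syndrome. Control libraries had 19.7, 25.1 and 20.4 TPM and *Prdm16*SMKO libraries 32.3, 34.9 and 27.2 TPM. Each *Prdm16*SMKO library was higher than the highest control, replicate 2. The log2 fold change was 0.53 (standard error 0.17; limma, unadjusted p = 0.0130, adjusted p = 0.379), a ratio of 1.44. The unadjusted p was over 0.05 when control replicate 1 (0.0625) or *Prdm16*SMKO replicate 2 (0.0569) was left out.

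*Inhba* (ENSMUSG00000041324; chromosome 13, 16011851 to 16031621) encodes the βA subunit of activin A. It was at 34.1, 38.2 and 33.4 TPM in control and 29.3, 29.0 and 22.4 TPM in *Prdm16*SMKO aortas, so it was lower in every *Prdm16*SMKO library. The log2 fold change was -0.39 (standard error 0.16; limma, unadjusted p = 0.0403, adjusted p = 0.539). The unadjusted p was over 0.05 in 4 of the 6 fits that left out a library, namely of control replicates 1 and 2 and *Prdm16*SMKO replicates 2 and 3.

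Of the remaining ligands, *Tgfb3* had means of 110 ± 20.7 TPM in control and 85.7 ± 11.1 TPM in *Prdm16*SMKO mice (SD, n = 3 each), and the groups overlapped. *Tgfb1*, whose product is the most studied TGF-β in vessel wall matrix, was at 22.8 ± 3.17 and 25.2 ± 3.47 TPM (SD, n = 3 each), a log2 difference of 0.14 with a 95% interval from -0.25 to 0.53. *Bmp2*, the ligand with the lowest level, was at 5.31 ± 0.759 and 4.80 ± 0.521 TPM (SD, n = 3 each). Neither *Tgfb1* nor *Bmp2* differed beyond the spread between libraries.

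**Figure D2:**
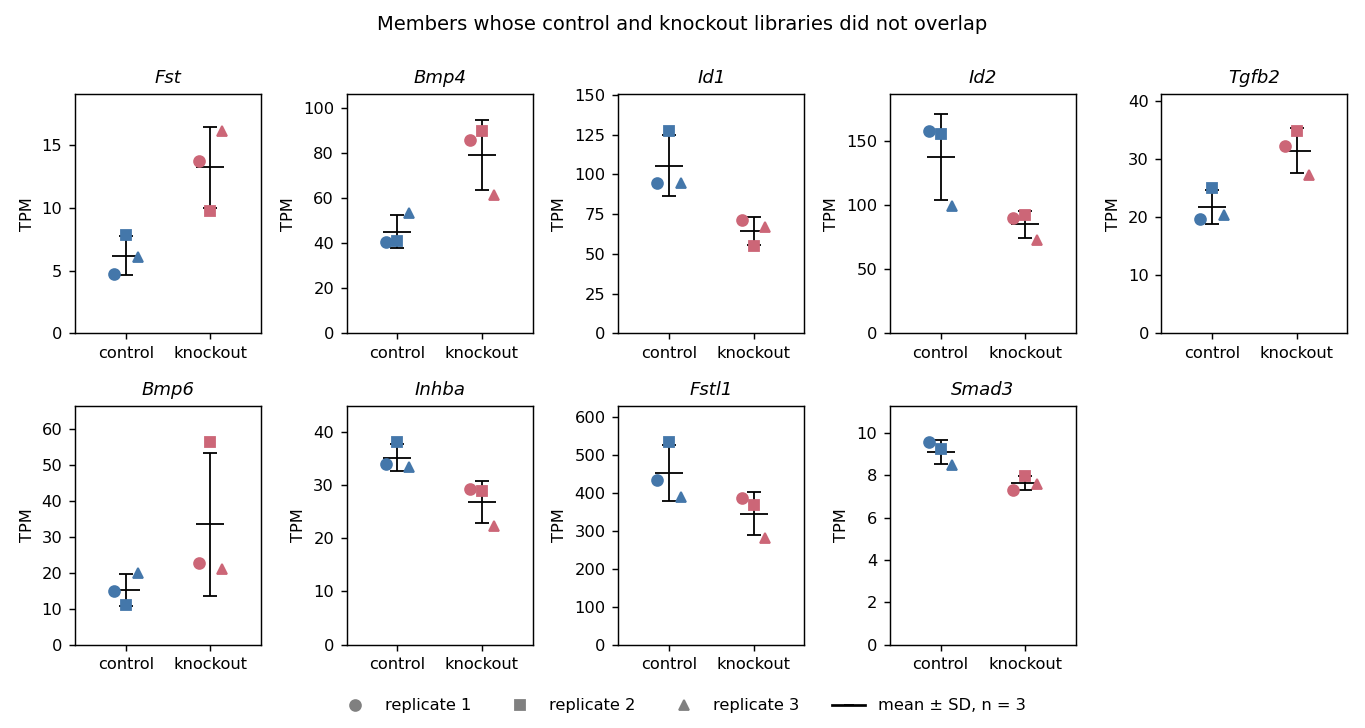
TPM (y axis, from 0) of the 9 genes whose groups did not overlap, in order of unadjusted p, with 1 point for each library (shape gives the replicate) and black bars for mean ± SD (n = 3). *Fst*, *Bmp4*, *Tgfb2* and *Bmp6* are higher in *Prdm16*SMKO aortas and *Id1*, *Id2*, *Inhba*, *Fstl1* and *Smad3* lower, and the 56.3 TPM of *Prdm16*SMKO replicate 2 stands apart in *Bmp6*.

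The latent TGF-β binding proteins were among the most abundant of the 35 transcripts and showed little difference between groups. *Ltbp4*, which also helps to assemble elastic fibres, was at 349 ± 39.7 TPM in control and 315 ± 74.0 TPM in *Prdm16*SMKO mice, *Ltbp1* at 221 ± 34.6 and 213 ± 33.5 TPM, and *Ltbp3* at 216 ± 35.2 and 192 ± 31.0 TPM (SD, n = 3 each). *Ltbp2*, which does not bind latent TGF-β, was much less abundant, with 17.8 to 30.8 TPM in control and 15.4 to 22.8 TPM in *Prdm16*SMKO mice. All 4 log2 fold changes were between -0.17 and -0.05, the groups overlapped in each, and the lowest adjusted p was 0.913. The widest of their 95% intervals, that of *Ltbp2*, ran from -0.71 to 0.39, and changes within it were not detectable with these libraries.

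The 2 secreted binding proteins differed between groups with opposite signs. *Fst* (ENSMUSG00000021765; chromosome 13, 114452290 to 114458951) encodes follistatin, which binds activins and, less tightly, some BMPs. Its level was 4.70, 7.79 and 6.08 TPM in control and 13.8, 9.77 and 16.1 TPM in *Prdm16*SMKO aortas. The groups did not overlap, and the smallest gap was between control replicate 2 and *Prdm16*SMKO replicate 2. With means of 6.19 ± 1.55 and 13.2 ± 3.21 TPM (SD, n = 3 each), the log2 fold change was 1.03 (standard error 0.24; limma, unadjusted p = 0.00234, adjusted p = 0.174), a ratio of 2.047 and the lowest p of the 35. The unadjusted p was under 0.05 in each of the 17 alternative fits, with log2 fold changes from 0.86 to 1.28, and the adjusted p ran from 0.0158 with array weights to 0.498 without control replicate 1. *Fstl1*, a secreted glycoprotein related to follistatin, had the highest level of the 35, with 434, 534 and 388 TPM in control and 386, 368 and 280 TPM in *Prdm16*SMKO aortas. Its groups were only just apart (log2 fold change -0.39, standard error 0.19; limma, unadjusted p = 0.0685). The unadjusted p of *Fstl1* was under 0.05 in 6 of the 17 alternative fits.

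Receptors gave no difference at an unadjusted p under 0.05 in any of the 8 genes. Of the 17 alternative fits, *Bmpr1a* (lower) passed that threshold in 5 and *Tgfbr3* (higher) in 4, and the other receptors in none. The type I receptors lie in the order *Bmpr1a*, *Acvrl1*, *Tgfbr1* and *Acvr1*, with control means of 71.6, 38.9, 30.9 and 17.7 TPM, and log2 fold changes of -0.26, -0.10, -0.15 and 0.09. *Bmpr1a* (ALK3) is a BMP receptor, *Acvrl1* (ALK1) the receptor for BMP9 in endothelium, *Tgfbr1* (ALK5) the TGF-β type I receptor and *Acvr1* (ALK2) a receptor for BMP6 and BMP7. The type II receptors *Tgfbr2*, *Bmpr2* and *Acvr2a* had control means of 39.1, 24.6 and 6.04 TPM and log2 fold changes of 0.10, 0.02 and 0.03. Their 95% intervals reached at most 0.51 and at least -0.38. *Tgfbr3*, the coreceptor betaglycan that presents TGF-β2, was at 18.2 to 27.4 TPM in control and 25.7 to 30.4 TPM in *Prdm16*SMKO mice, with a log2 fold change of 0.28 and a 95% interval from -0.14 to 0.69. The groups overlapped in all 8 receptors.

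**Figure D3:**
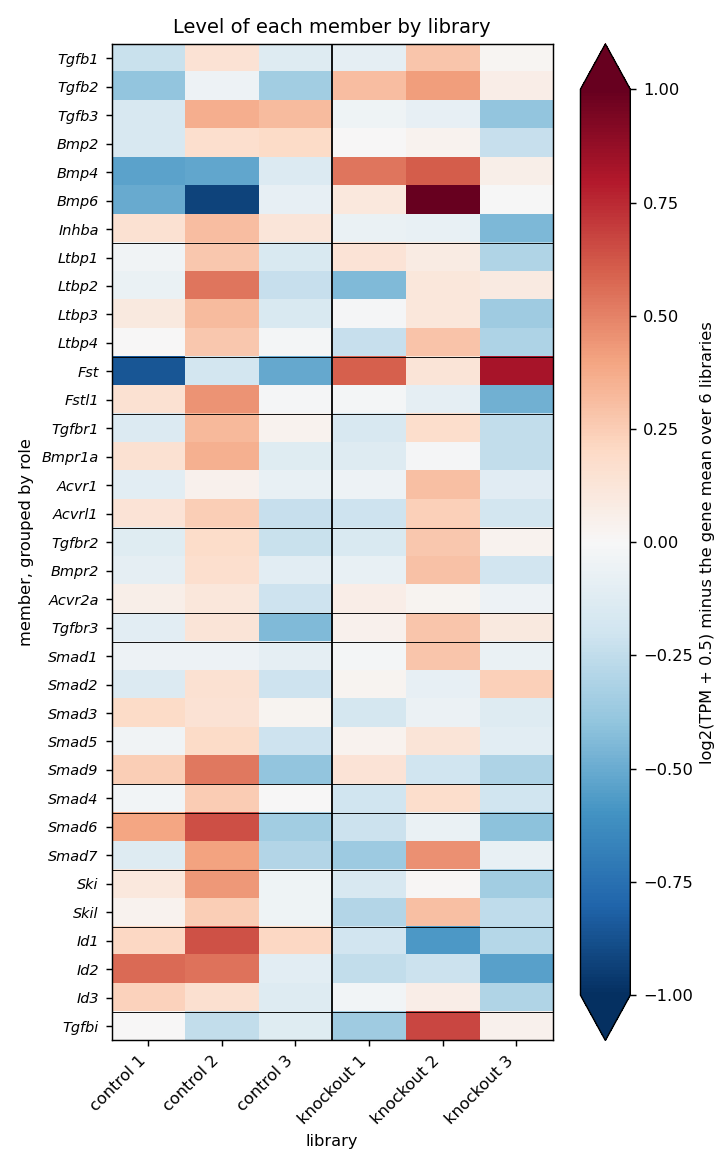
Level of each of the 35 genes in each library (colour, log2 of TPM + 0.5 minus the gene's mean over the 6 libraries, limits at -1 and 1), with rows grouped by role and the groups split by a vertical line. Of the 35 genes, 16 were highest in control replicate 2 and 13 in *Prdm16*SMKO replicate 2, while 15 were lowest in *Prdm16*SMKO replicate 3.

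As the heat map shows, much of the variation among the 35 genes ran across libraries within a group. Control replicate 2 held the highest value of 16 genes and *Prdm16*SMKO replicate 2 that of 13, and the lowest value of 15 genes was in *Prdm16*SMKO replicate 3. Ribosomal RNA entries together took 15.5% to 31.4% of a library's TPM and mitochondrial transcripts 15.8% to 27.4%, so TPM of every other gene moves with those shares.

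The SMAD transcripts were close between groups. Among receptor-regulated SMADs, *Smad1* was at 12.8 ± 0.189 and 14.1 ± 1.95 TPM, *Smad5* at 12.4 ± 1.79 and 12.7 ± 1.09 TPM, and *Smad2* at 11.7 ± 1.66 and 12.8 ± 1.51 TPM in control and *Prdm16*SMKO mice (SD, n = 3 each). *Smad9*, the least abundant of the BMP SMADs, had 4.29 to 8.56 TPM in control and 4.58 to 6.41 TPM in *Prdm16*SMKO mice. *Smad3*, the TGF-β SMAD whose loss causes aneurysm with osteoarthritis in people, was at 9.58, 9.27 and 8.48 TPM in control and 7.30, 7.96 and 7.59 TPM in *Prdm16*SMKO aortas. Its groups did not overlap, but the log2 fold change of -0.24 had a standard error of 0.16 (limma, unadjusted p = 0.157). The common *Smad4* was at 28.7 ± 3.20 and 25.9 ± 4.10 TPM (SD, n = 3 each).

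Of the inhibitory SMADs, *Smad6*, a BMP target that blocks BMP receptors, was at 35.2, 41.9 and 20.9 TPM in control and 22.9, 25.5 and 19.9 TPM in *Prdm16*SMKO aortas. Control replicate 3 lay within the *Prdm16*SMKO range, and the log2 fold change was -0.46, standard error 0.25 (limma, unadjusted p = 0.102). The unadjusted p of *Smad6* was under 0.05 in 5 of the 17 alternative fits. *Smad7*, which inhibits TGF-β receptors as well, had 19.8 to 32.5 TPM in control and 18.9 to 33.7 TPM in *Prdm16*SMKO mice. Its log2 difference of 0.01 had a 95% interval from -0.57 to 0.59.

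The SKI repressors hold back SMAD targets in the nucleus. *Ski* was at 94.8, 119 and 85.5 TPM in control and 78.7, 88.5 and 68.9 TPM in *Prdm16*SMKO aortas, a log2 difference of -0.33, standard error 0.17 (limma, unadjusted p = 0.0893), and *Prdm16*SMKO replicate 2 lay within the control range. The unadjusted p of *Ski* was under 0.05 in 5 of the 17 alternative fits. *Ski* lies on chromosome 4 at 0.517 Mb from *Prdm16*. Of the 194 other genes tested no farther than 15 Mb from *Prdm16*, 54 (27.8%) passed that unadjusted threshold, beside 8.74% of all genes tested. Of the 194, 8 were called at an adjusted p under 0.05 (limma), where 56 of all 15775 genes tested were. What part the neighbourhood has in the value of *Ski* was not tested. *Id3*, at 18.2 Mb, and *Tgfbr1*, at 107 Mb, are on the same chromosome. *Skil*, the relative of *Ski* that TGF-β induces, was at 21.8 to 26.8 TPM in control and 18.2 to 27.9 TPM in *Prdm16*SMKO mice.

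The ID genes encode inhibitors of basic helix-loop-helix factors and are the classic direct targets of BMP SMADs. *Id1* (ENSMUSG00000042745; chromosome 2, 152736251 to 152737410) was at 94.4, 127 and 94.2 TPM in control and 71.5, 54.7 and 66.9 TPM in *Prdm16*SMKO aortas. All *Prdm16*SMKO libraries were lower than all controls. The mean was 105 ± 19.1 TPM (SD, n = 3) for control mice and 64.4 ± 8.67 TPM (SD, n = 3) for *Prdm16*SMKO mice, and the log2 fold change was -0.70 (standard error 0.18; limma, unadjusted p = 0.00382, adjusted p = 0.225). An unadjusted p under 0.05 was found in all 17 alternative fits, with log2 fold changes from -0.78 to -0.56, and its adjusted p ran from 0.0536 with array weights to 0.524 without *Prdm16*SMKO replicate 2.

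*Id2* (ENSMUSG00000020644; chromosome 12, 25093799 to 25097140) was at 158, 155 and 98.9 TPM in control and 89.8, 92.0 and 73.0 TPM in *Prdm16*SMKO aortas. Every *Prdm16*SMKO library was again below every control, with control replicate 3 the closest. The log2 fold change was -0.67 (standard error 0.21; limma, unadjusted p = 0.0116, adjusted p = 0.361), and without control replicate 1 it was -0.55 with an unadjusted p of 0.0530. Over the alternatives the adjusted p ran from 0.0240 with array weights to 0.798 without control replicate 1. *Id3* (ENSMUSG00000007872; chromosome 4, 136143497 to 136145755) had 94.1, 89.6 and 73.1 TPM in control and 78.3, 83.8 and 64.7 TPM in *Prdm16*SMKO aortas. Those groups overlapped, with a log2 fold change of -0.18 and a 95% interval from -0.56 to 0.20.

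Immediate-early genes were lower in the same group as *Id1* and *Id2*. All 13 immediate-early genes on a marker list had lower means on the log2 scale in *Prdm16*SMKO mice, where 7223 of all 15775 genes tested did. Of the 13, 5 were called, against 0.171% of all genes tested that were called lower, and 10 had an unadjusted p under 0.05, while *Junb*, *Ier2* and *Egr2* had log2 differences of -0.24, -0.30 and -0.10 with unadjusted p-values of 0.358, 0.210 and 0.733 (limma). Their summed level was 736 to 1064 TPM in control and 275 to 505 TPM in *Prdm16*SMKO aortas, without overlap. In *Prdm16*SMKO replicates 1, 2 and 3 the sum was 275, 505 and 407 TPM. In those libraries *Id1* was at 71.5, 54.7 and 66.9 TPM, in the reverse order of the sum. *Id2* was at 89.8, 92.0 and 73.0 TPM, which follows neither order. In control aortas the sum was 1064, 883 and 736 TPM, in the same order as *Id2* but not *Id1*. The part of the lower immediate-early level in the ID values was not tested. *Tgfbi*, a matrix protein named for its induction by TGF-β, was at 103, 86.8 and 94.9 TPM in control and 80.5, 164 and 106 TPM in *Prdm16*SMKO aortas. Its high value was in the library with the highest endothelial, fibroblast and macrophage sums, and without that library the log2 fold change was -0.04 in place of 0.24.

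A wider list of 87 genes of the same pathways, none of them among the 35, was read in the same fit. *Chrdl1*, which encodes the BMP antagonist chordin-like 1, was at 25.0, 26.9 and 17.8 TPM in control and 50.7, 57.5 and 44.7 TPM in *Prdm16*SMKO aortas. The ranges were far apart, with a log2 difference of 1.13 (standard error 0.19; limma, adjusted p = 0.0620), and size factors, quantile normalization and array weights gave adjusted p-values of 0.0115, 0.0142 and 0.00735, in a range of 0.00735 to 0.188 over all alternatives. *Bmp3*, a BMP family ligand that opposes other BMPs, was at 4.71, 5.95 and 3.14 TPM in control and 11.0, 11.2 and 9.15 TPM in *Prdm16*SMKO aortas (log2 fold change 1.13, standard error 0.23; limma, adjusted p = 0.106). *Sost*, which encodes sclerostin, known mainly as a secreted Wnt antagonist, was abundant, with 465, 642 and 379 TPM in control and 272, 278 and 245 TPM in *Prdm16*SMKO aortas. Its values were all lower in *Prdm16*SMKO mice (log2 fold change -0.87, standard error 0.20; limma, adjusted p = 0.170).

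**Figure D4:**
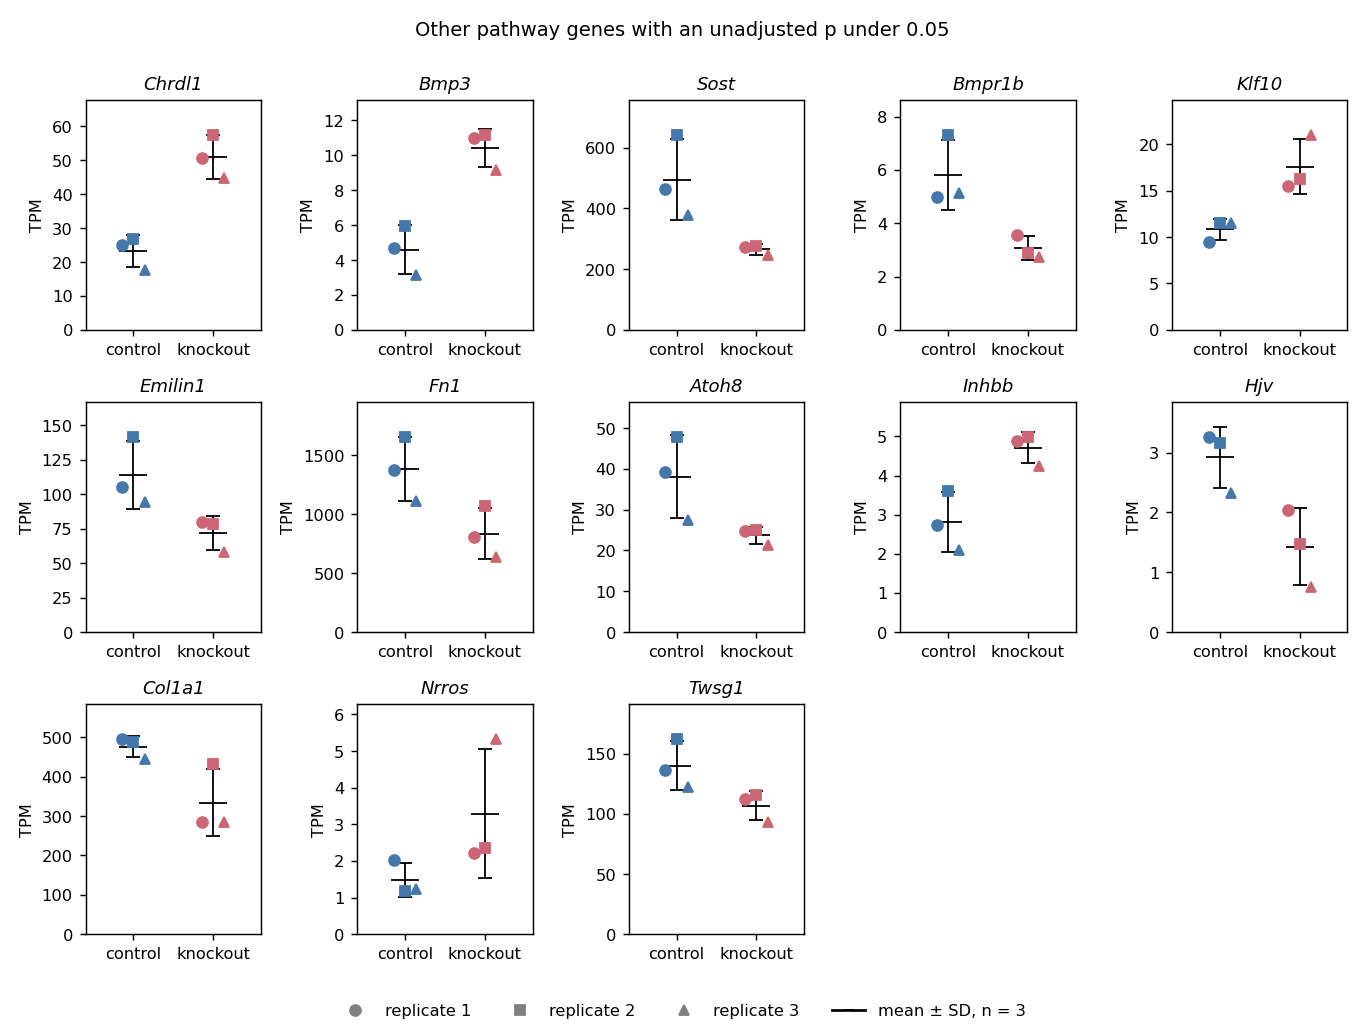
TPM (y axis, from 0) of the 13 genes of the wider list with an unadjusted p under 0.05, in order of p, with 1 point for each library (shape gives the replicate) and black bars for mean ± SD (n = 3). The groups do not overlap in any of the 13, which were picked by their p. Of the 67 genes of the wider list that were tested, 16 (23.9%) had groups without overlap, beside 12.8% of all genes tested. *Chrdl1* runs from 26.9 TPM in the highest control to 44.7 TPM in the lowest *Prdm16*SMKO library.

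Of the 87 genes, 67 passed the minimum level, and 36 of these were lower and 31 higher, and the median of their log2 fold changes was -0.02. None of the 67 was called (limma), and the lowest adjusted p was 0.0620, that of *Chrdl1*. At an unadjusted p under 0.05 there were 13, 8 lower and 5 higher, which is 19.4% of the 67 beside 8.74% of all genes tested. Among targets of the pathway, *Atoh8*, a target of BMP and ALK1 signalling, was at 38.1 ± 10.2 and 23.7 ± 2.12 TPM, *Fn1* (fibronectin) at 1381 ± 272 and 836 ± 217 TPM and *Col1a1* (a chain of type I collagen) at 476 ± 26.8 and 334 ± 84.8 TPM in control and *Prdm16*SMKO mice. *Klf10*, an early TGF-β target, was higher, at 10.8 ± 1.16 and 17.6 ± 2.99 TPM. Their log2 fold changes were -0.64, -0.74, -0.54 and 0.67, with adjusted p-values of 0.398, 0.367, 0.447 and 0.256 (limma). Each SD is over n = 3 libraries.

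In the receptors and coreceptors of the wider list, *Bmpr1b*, a BMP type I receptor, was at 5.81 ± 1.302 and 3.07 ± 0.440 TPM and *Hjv*, the BMP coreceptor hemojuvelin, at 2.92 ± 0.513 and 1.43 ± 0.642 TPM in control and *Prdm16*SMKO mice (SD, n = 3 each). *Emilin1*, an elastic fibre protein that limits TGF-β processing, was at 114 ± 24.6 and 72.1 ± 12.3 TPM, and *Twsg1*, a BMP-binding partner of chordin, at 140 ± 20.3 and 107 ± 12.2 TPM (SD, n = 3 each). Higher in *Prdm16*SMKO mice were *Inhbb*, the activin βB subunit, at 2.81 ± 0.763 against 4.71 ± 0.398 TPM, and *Nrros*, which anchors latent TGF-β on macrophages, at 1.48 ± 0.465 against 3.29 ± 1.76 TPM (SD, n = 3 each). For these 6 genes the adjusted p was between 0.255 and 0.556 (limma). *Nrros* was highest in *Prdm16*SMKO replicate 3 (5.32 TPM) and the macrophage marker sum in *Prdm16*SMKO replicate 2 (205 TPM). Both were higher in all *Prdm16*SMKO libraries than in any control, the sum only just. Its closest values were 111.07 TPM in control replicate 1 and 111.8 TPM in *Prdm16*SMKO replicate 1. The part of the macrophage sum in the *Nrros* value was not tested.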

How the data were processed

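RNA-seq of abdominal aorta in 6 libraries, 3 in each group, was read from the table of TPM values that the authors deposited, rounded to 2 decimals. The submitters' processing notes name cutadapt 2.3, STAR 2.7.8a, RSEM 1.3.3 and GRCm38 and the labels give 151 bp paired reads. TPM keep no depth, so no counting error was computed. Columns were joined to mice by the library names in the labels. The labels say no more of the replicates than their number, so p-values measure the spread between these libraries, which may be technical. Gene positions are from GENCODE M21 on GRCm38.

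The 15775 genes whose mean reached 0.5 TPM were compared on log2(TPM + 0.5), which understates changes of low genes, with limma 3.58.1 (trend on expression, two-sided, Benjamini-Hochberg over all genes) in R 4.3.3, after tests on simulated data. The smallest exact permutation p for 3 against 3 libraries is 0.1, which each gene without overlap reached. Whether the counting used strand is not given in the sources used here. If it did not, the 10 of the 35 genes that share exon bases with a gene on the other strand are less certain. The 35 genes and all lists were chosen with earlier results of these data known. An item was left out of the wider list and of its counts and is not reported here. Every gene of the 87 with an unadjusted p under 0.05 is named. Alternatives were other pseudocounts (0.1, 1), no minimum or 2 TPM, 3 other scalings, 2 variance models, array weights, a replicate block and each library left out.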

Additional observations from a re-analysis of the deposited data

How the results depend on the processing

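Over 17 alternatives the 35 genes gave 595 log2 fold changes, of which 568 kept their direction and their side of the threshold. Array weights called 4 of the 35, *Bmp4*, *Fst*, *Id2* and *Tgfb2*, in place of 0, and the other alternatives called none (4 to 12 at an unadjusted p under 0.05). The median log2 fold change of the 35 stayed between -0.21 and -0.01. The number of genes called over the whole table was 56, and it was 10 with no minimum level, 153 with size factors, 123 without mitochondrial and ribosomal RNA genes, 129 with quantile normalization, 33 without a variance trend, 112 with robust moderation and 494 with array weights. Leaving out 1 library gave 5 to 61, with 5 without control replicate 2, 17 without control replicate 1 or 3 and 28 without *Prdm16*SMKO replicate 2. With the replicate number as a block it was 4, with 0 of the 35. Same-numbered libraries did not stand out as alike. Correlations of their deviations from the group means ran from -0.13 to 0.02, and 0 of the 6 libraries correlated best with its own number. With so few libraries, these correlations cannot tell whether the mice were paired in some way. The cause of the changes in the number of genes called was not tested.

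Signs turned in 11 genes, none of them called. Array weights gave log2 fold changes of 0.0872 for *Bmp2*, 0.0293 for *Ltbp1*, 0.0599 for *Tgfbr1* and -0.0321 for *Acvr2a*, and quantile normalization gave -0.0017 for *Bmpr2*, -0.0360 for *Acvr2a* and -0.0025 for *Smad5*. Leaving out 1 library gave -0.14 to 0.0824 for *Ltbp1*, -0.32 to 0.0675 for *Ltbp2*, -0.0353 to 0.17 for *Acvr1*, -0.0060 to 0.22 for *Tgfbr2*, -0.12 to 0.12 for *Bmpr2*, -0.0717 to 0.0870 for *Acvr2a*, -0.0577 to 0.14 for *Smad5*, -0.21 to 0.22 for *Smad7* and -0.0366 to 0.47 for *Tgfbi*. The sign of *Tgfbi* turned without *Prdm16*SMKO replicate 2. Without read counts, the only error known for low genes such as *Fst* and *Bmp2* is the spread between libraries.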
